A study of Mus musculus with 168 samples.

Results

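The nuclear genes of the mitochondrial respiratory chain were followed across single cells of the old mouse brain. Members were taken by gene symbol, as all symbols that begin with Ndufa, Ndufb, Ndufc, Ndufs, Ndufv, Uqcr, Cox4 to Cox8 or Atp5, with Sdha, Sdhb, Sdhc and Sdhd, and without pseudogenes. This gave 93 of 42405 gene symbols, and 11 further symbols of that form were left out because the annotation calls them processed pseudogenes. By role, 7 members are core subunits of complex I, 29 its accessory subunits and 8 its assembly factors, 4 belong to complex II, 8 to complex III, 20 to complex IV and 17 to complex V. Ndufa4 and Ndufa4l2 were counted with complex IV, where Ndufa4 is now placed. The assembly factors (Ndufaf1 to Ndufaf8) are not subunits of the finished enzyme, so they are reported apart. Atp5s, counted here with complex V by its symbol, is a coupling factor and not a subunit of the finished enzyme.

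The respiratory chain passes electrons from NADH (through complex I) and succinate (through complex II) by way of complex III and cytochrome c to complex IV, which reduces oxygen. Complexes I, III and IV pump protons across the inner mitochondrial membrane, and complex V, the ATP synthase, uses the gradient to make ATP. Most subunits are encoded in the nucleus and the rest in mitochondrial DNA. Neural stem cells at rest are known to lean on glycolysis and fatty acid oxidation, and neurogenic progeny to depend more on oxidative phosphorylation.

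Male C57BL/6 mice gave all cells, and no allele or treatment differed between groups. The astrocytes, sorted as GLAST positive and negative for CD45 and O4, came from striatum (13 cells, 11 named OGStr and 2 named OStr) and from cortex (4 cells, named OCx), of mice labelled 25 months. The other 133 cells came from the subventricular zone (SVZ), the stem cell niche beside the lateral ventricle, of mice labelled 23 months (the protocol text names another age), and were sorted as positive for GLAST and CD133 and negative for CD45 and O4 (68 cells of a series ogp and 65 of a series ogp2). Cells of pooled mice were picked by hand, no animal is named, and each tissue therefore counts as 1 sample, so no test was made and all differences below are descriptions. Age, sort gate and series of cells differ between the tissues and cannot be told apart from tissue.

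Libraries were made by Smart-seq2, a full-length method, and values are TPM, transcript levels after division by transcript length. Levels of different genes are set side by side on this scale, and a remaining effect of length on level was not tested. Read depth is unknown. In 5 SVZ cells of the ogp series the listed genes sum to between 66189 and 309864, and every cell was rescaled to 1000000. Without these 5 cells the median log2 over members was -0.02 in striatum over SVZ and 0.19 in cortex over SVZ, and the Spearman rho of the chain's share with the ribosomal protein share was 0.37. Cells had a median of 3636 genes at 1 TPM or more in striatum, 3387.5 in cortex and 3479 in SVZ. The 12 markers of astrocytes and resting stem cells summed to a median of 75725 TPM in striatum, 55208 in cortex and 69573 in SVZ. In SVZ cells this sum ran from 912 to 139253 TPM. Of the 6 microglia markers, 6 were below 1 TPM in every striatum and every cortex cell, and 4 in every SVZ cell. The highest sums in an SVZ cell were 7043 TPM for oligodendrocyte lineage markers, 2255 TPM for ependyma and 1019 TPM for neuroblasts. They were 989 TPM for microglia and 332 TPM for neurons. Oligodendrocyte lineage markers summed to 253 to 646 TPM in cortex cells and 0 to 386 TPM in striatum cells. The part of RNA from other cell types was not tested. No gene of mitochondrial DNA is listed, so the chain is described from its nuclear side alone. A value of 0 in 1 cell can be a failed estimate, and members are therefore said to be listed at 0.

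Respiratory chain transcripts were abundant in all 3 tissues, with the assembly factors of complex I lowest in each. The median member of complex V had a mean of 452 TPM in striatum, 447 TPM in cortex and 402 TPM in SVZ. For complex III the median member had 405 TPM in striatum, 535 TPM in cortex and 437 TPM in SVZ. Assembly factors of complex I stood far lower, with a median of 33.6 TPM in striatum, 66.9 TPM in cortex and 38.1 TPM in SVZ. Core subunits of complex I had a median of 353 TPM in striatum, 402 TPM in cortex and 253 TPM in SVZ, and its accessory subunits one of 274 TPM in striatum, 271 TPM in cortex and 267 TPM in SVZ. For complex IV the median was 291 TPM in striatum, 277 TPM in cortex and 296 TPM in SVZ, and for complex II it was 236 TPM in striatum, 271 TPM in cortex and 279 TPM in SVZ. The complex IV median includes isoforms listed at or near 0. Of its 20 members, 14 reached a mean of 10 TPM in striatum, 11 in cortex and 14 in SVZ. In complex II all 4 members did so in each tissue.

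**Figure D1:**
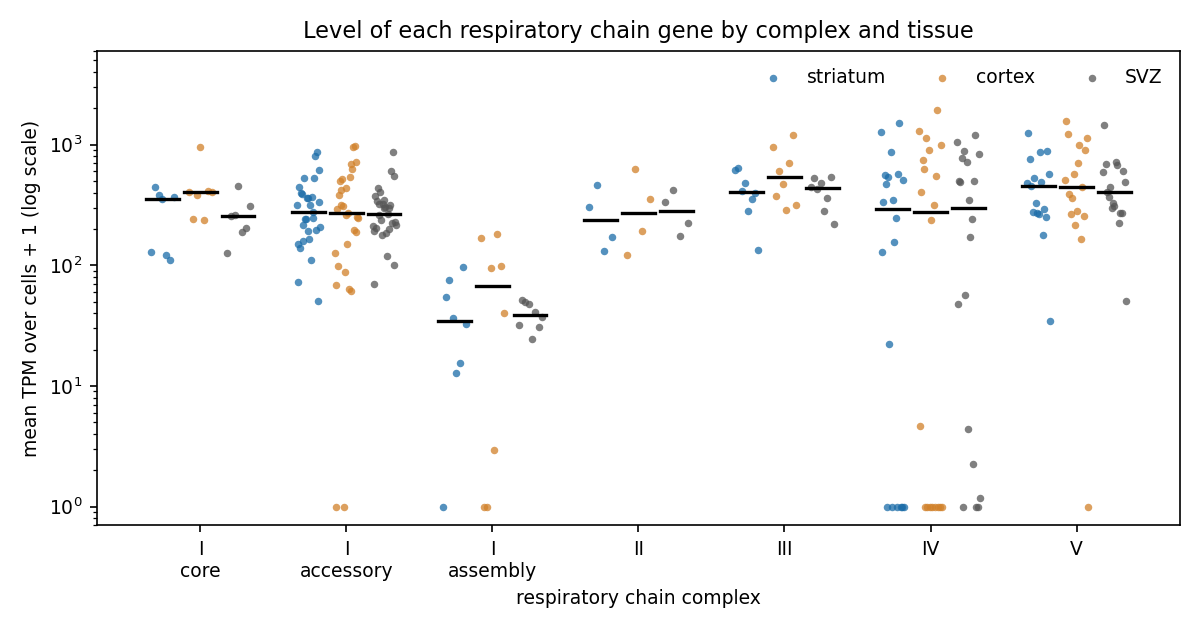
Each point is 1 of the 93 members, placed by its mean TPM over cells plus 1 on a log scale, for striatum (13 cells), cortex (4 cells) and SVZ (133 cells), and black bars are medians over members. Assembly factors of complex I lie lowest, with a median of 38.1 TPM in SVZ, and members on the lowest line are listed at 0 in every cell of that tissue.

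Of complex V, Atp5b encodes the catalytic beta subunit of the ATP synthase (chr10:128083273-128090391 on GRCm38) and had the highest level of that complex. It averaged 1243 TPM in striatum, 1579 TPM in cortex and 1458 TPM in SVZ. Its cells ran from 385 to 3115 TPM in striatum (median 1014), stood at 1848, 1162, 2108 and 1199 TPM in the 4 cortex cells (cells 1, 19, 24 and 5, in this order throughout), and ran from 0 to 3627 TPM in SVZ (median 1409). The tissues overlapped. The gamma subunit Atp5c1 of the rotor had 764 TPM in striatum, 1214 TPM in cortex and 688 TPM in SVZ. The small membrane subunit Atp5mpl had 881 TPM in striatum, 894 TPM in cortex and 605 TPM in SVZ. The alpha subunit Atp5a1, which alternates with beta in the catalytic ring, stood at 595 TPM in SVZ, under the level of Atp5b.

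In complex IV, the terminal oxidase, Cox8a and Cox4i1 led. Cox8a averaged 1520 TPM in striatum, 1934 TPM in cortex and 1206 TPM in SVZ, and was at 1 TPM or more in 132 of 133 SVZ cells. Cox4i1 (chr8:120668222-120674207) averaged 1283 TPM in striatum, 1285 TPM in cortex and 1054 TPM in SVZ. In single cells it ran from 200 to 2451 TPM in striatum (median 1195) and from 0 to 3460 TPM in SVZ (median 1029), and cortex cells had 1031, 749, 1527 and 1834 TPM. For Cox4i1, the striatum and cortex cells lay within the range of the 133 SVZ cells.

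In complex III the hinge protein gene Uqcrh had 398 TPM in striatum, 1208 TPM in cortex and 535 TPM in SVZ. The small subunit gene Uqcr10 had 615 TPM in striatum, 950.0 TPM in cortex and 447 TPM in SVZ, and Uqcr11 had 637 TPM in striatum, 372 TPM in cortex and 530 TPM in SVZ. Uqcrc1, a core protein of the complex, had 484 TPM in striatum, 467 TPM in cortex and 479 TPM in SVZ, so that the order of these genes differed by tissue. In complex I, the small accessory subunits Ndufc2 (861 TPM), Ndufb9 (605 TPM) and Ndufs5 (546 TPM) led in SVZ. Among the core subunits, which hold the redox centres, Ndufs7 (452 TPM), Ndufv2 (307 TPM) and Ndufs3 (258 TPM) were highest there.

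Complex II, succinate dehydrogenase, also belongs to the citric acid cycle and has 4 subunits. Its iron-sulfur subunit Sdhb had the highest level, with 466 TPM in striatum, 631 TPM in cortex and 421 TPM in SVZ. The flavoprotein Sdha had 302 TPM in striatum, 121 TPM in cortex and 333 TPM in SVZ, with cortex cells at 0, 246, 0 and 238 TPM. The membrane anchors Sdhc and Sdhd averaged 130 and 170 TPM in striatum, 190 and 351 TPM in cortex, and 174 and 225 TPM in SVZ.

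Several subunits have tissue-specific isoforms, and in these cells the common form had the higher mean in every such set described here. Cox6a1, the form of most tissues, averaged 469 TPM in striatum, 631 TPM in cortex and 775 TPM in SVZ. Cox6a2 and Cox8b, isoforms of heart and skeletal muscle, and Cox8c, an isoform of testis, were listed at 0 in all 150 cells. Cox7a1, another muscle isoform, was listed at 0 in every striatum and cortex cell and averaged 3.37 TPM in SVZ, against 349 TPM for Cox7a2 in SVZ. Cox6b2 averaged 21.4 TPM in striatum, was listed at 0 in the 4 cortex cells, and averaged 56.1 TPM in SVZ, where Cox6b1 stood at 887 TPM. Ndufa4l2, which replaces Ndufa4 under low oxygen, averaged 0.173 TPM in SVZ, against 832 TPM for Ndufa4. The 3 genes for the membrane ring subunit c, whose mature protein is identical, differed most in cortex: Atp5g1, Atp5g2 and Atp5g3 stood at 330, 268 and 265 TPM in striatum, at 569, 216 and 283 TPM in cortex, and at 296, 330 and 310 TPM in SVZ.

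Cox4i2 encodes the form of subunit 4 known from lung and from oxygen-sensing cells, and lies at chr2:152754173-152765037. It averaged 128 TPM in striatum, 3.70 TPM in cortex and 46.4 TPM in SVZ. Striatum cells ran from 0 to 411 TPM with a median of 137 TPM, 1 cortex cell had 14.8 TPM and the other 3 were listed at 0, and SVZ cells ran from 0 to 948 TPM with a median of 0. It was at 1 TPM or more in 8 of 13 striatum cells (61.5%, exact Clopper-Pearson 95% interval 31.6 to 86.1), 1 of 4 cortex cells and 26 of 133 SVZ cells (19.5%, interval 13.2 to 27.3). The 2 intervals for striatum and SVZ treat cells as independent draws. Each tissue counts as 1 sample, so the intervals are no test between tissues. Both series of striatal cells held it (7 of 11 OGStr and 1 of 2 OStr cells), as did both SVZ series (12 of 68 ogp and 14 of 65 ogp2 cells). Cox4i2 is also a gene of mural cells, so their markers (Pdgfrb, Rgs5 and Acta2) are given beside it: their sum had a median of 56.3 TPM in striatum, 0 TPM in cortex and 0.0900 TPM in SVZ, with ranges of 0 to 179 TPM in striatum and 0 to 296 TPM in SVZ. Of the 3, Rgs5 and Acta2 reached 1 TPM in no striatum cell, and Acta2 in no SVZ cell. Within striatum the mural sum had a median of 41.2 TPM in the 8 cells with Cox4i2 and 72.9 TPM in the 5 cells without it. In SVZ these medians were 29.3 and 0.0600 TPM, and the part of mural RNA in the Cox4i2 values was not tested. All these intervals reflect counting error alone.

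Most members were found in most cells. Over the members with a mean of at least 10 TPM, the median share of cells at 1 TPM or more was 84.6% in striatum (86 members), 100% in cortex (78 members) and 79.7% in SVZ (87 members). The same median over all genes at that level was 30.8% in striatum, 50% in cortex and 30.8% in SVZ. Members of higher level had higher shares in SVZ (Spearman rho 0.87 over 87 members, which share the same cells). Among genes with a mean between 100 and 1000 TPM in SVZ, the median share was 81.2% for 71 members and 66.2% for all 1533 genes.

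In SVZ, 16 members were in at least 90% of cells, 8 of them of complex IV and 6 of complex V. The share of all genes at this limit was not taken. As the share of cells went with level (rho 0.87), the split by complex is not separate from level. None of the 7 core subunits of complex I and none of the 4 subunits of complex II was among them. The highest core subunit was Ndufs7, with 113 of 133 SVZ cells (interval 77.7% to 90.6%), and the lowest was Ndufs1, with 84 of 133 (63.2%, interval 54.4 to 71.4). All 8 assembly factors stood under 50% in SVZ. The lowest of them was Ndufaf6 (20 of 133, interval 9.43% to 22.3%) and the highest Ndufaf4 (44.4%). Ndufa11, whose mean was 69.2 TPM, was in 71.4% of SVZ cells, while Ndufa1, at 210 TPM, was in 53.4%.

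**Figure D2:**
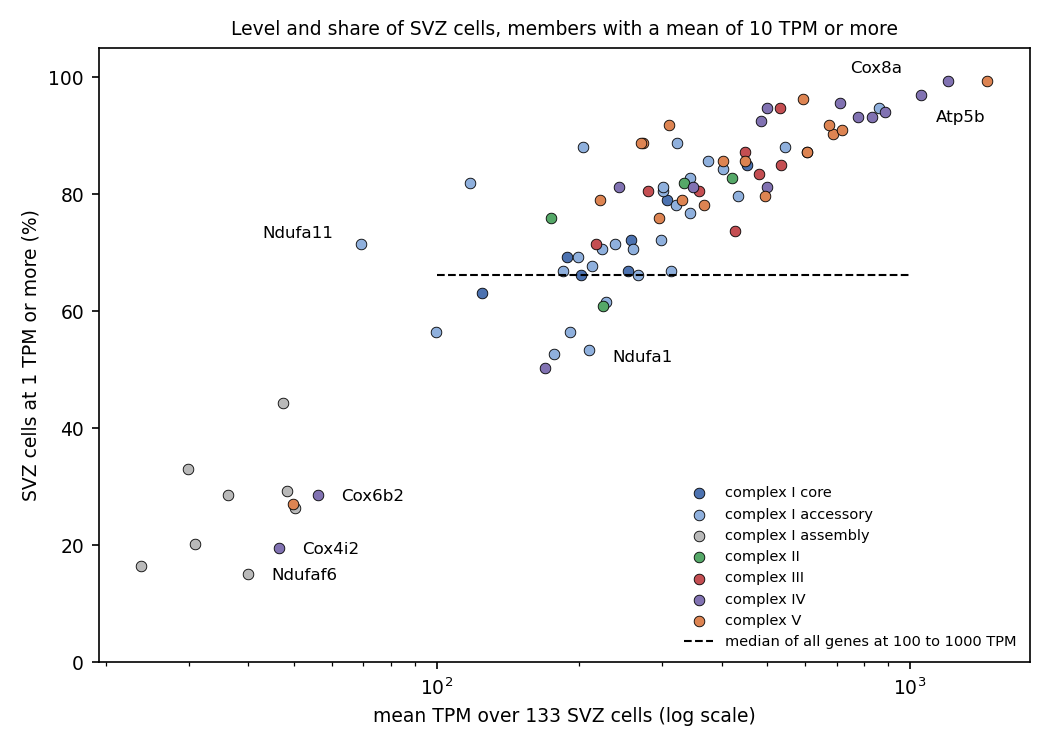
Each point is 1 of the 87 members with a mean of at least 10 TPM in SVZ, with its mean TPM (log scale) and the share of the 133 SVZ cells at 1 TPM or more, coloured by complex. The dashed line is the median share (66.2%) of all genes between 100 and 1000 TPM, and assembly factors, Cox4i2, Cox6b2 and Atp5s lie below 50%.

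Summed over the 93 members, the respiratory chain took a median of 3.27% of the TPM of a striatum cell (lowest 2.13%, highest 3.66%), 3.93% of a cortex cell (3.48% to 4.12%) and 3.03% of an SVZ cell (1.59% to 5.64%). Every astrocyte lay within the range of SVZ cells. Of the median SVZ cell, complex I accessory subunits took 0.837%, complex V 0.800%, complex IV 0.752%, complex III 0.328%, complex I core 0.173%, complex II 0.108% and assembly factors 0.0268%. The core of complex I had a median of 0.192% in striatum, 0.307% in cortex and 0.173% in SVZ. The 4 cortex cells (0.221% to 0.376%) were still within the SVZ range of 0.0210% to 0.435%. Complexes varied together over SVZ cells to different degrees. The share of complex IV went with that of complex V (rho 0.51 over 133 cells) and of the accessory subunits of complex I (0.53), while the share of complex II had a rho between 0.086 and 0.18 with every other set and the core of complex I one of 0.14 with its own accessory subunits. These shares come from the same cells and sum to a part of one total.

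**Figure D3:**
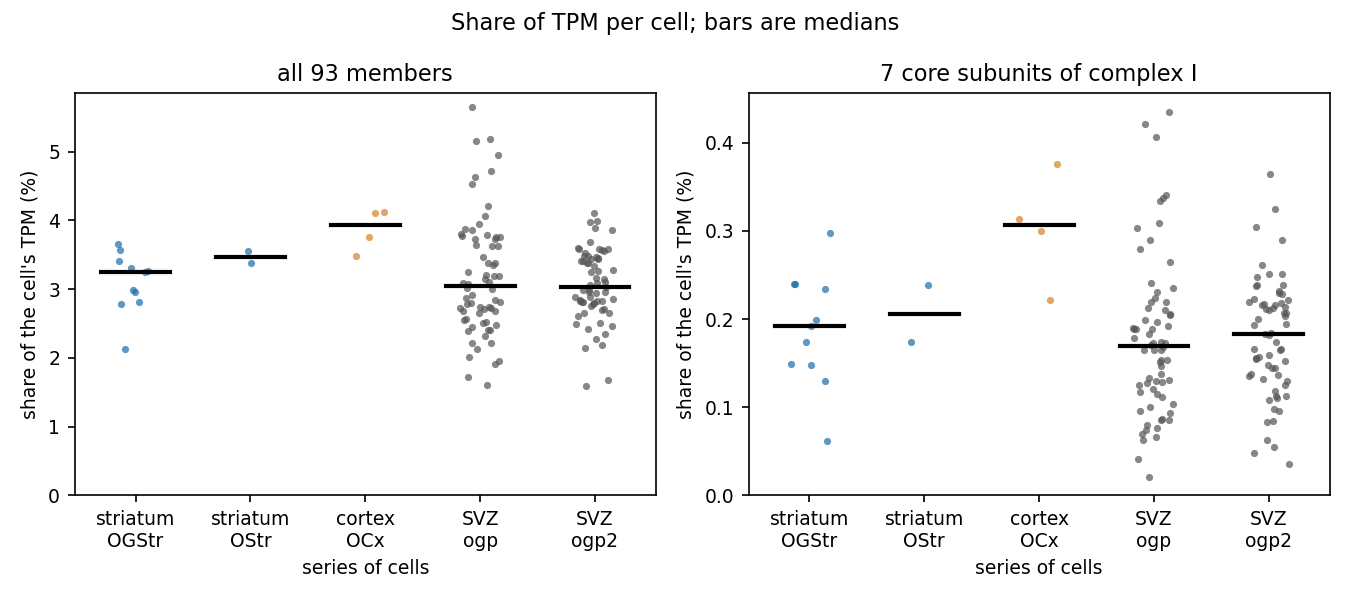
Each point is 1 cell, with the share of its TPM held by all 93 members (left) and by the 7 core subunits of complex I (right), in percent, by series of cells, and bars are medians. The left panel shows medians between 3.03% and 3.93%, with the widest spread in the ogp series of SVZ.

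Between striatal astrocytes and SVZ cells the median difference of respiratory chain transcripts was near 0. The value per gene was log2 of mean TPM plus 1 in striatum over mean TPM plus 1 in SVZ. Over the 87 members with at least 10 TPM in either group its median was -0.00, and 43 members were higher and 44 lower in striatum, while the median over all 9080 genes was -0.26. At least a 2-fold difference was seen in 2 members that were higher in striatum, where 12.3% of all genes were, and in 4 that were lower, where 28.3% of all genes were. Among genes with 100 TPM in either group, 1 of 75 members was 2-fold higher (7.53% of all 1925 genes) and 1 was 2-fold lower (12.8% of all), and the median over all these genes was -0.12. The counts rest on means: when logs were averaged over cells instead, 17 members were 2-fold higher and 10 lower. No share over all genes was taken with averaged logs, so these 2 counts have no background.

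The 2 members past 2-fold higher in striatum were Cox4i2 (log2 1.45) and Ndufaf7 (1.66). Ndufaf7, a methyltransferase needed for the assembly of complex I, averaged 96.2 TPM in striatum and 29.8 TPM in SVZ, and was in 7 of 13 striatum cells and 44 of 133 SVZ cells. The accessory subunits Ndufb3 and Ndufb8 both had a log2 of 0.76.

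Of the lower members, Ndufaf1, an assembly factor of complex I, was listed at 0 in all 13 striatum cells and averaged 30.8 TPM in SVZ, where it was in 27 of 133 cells (20.3%, interval 13.8 to 28.1). For the 0 of 13 in striatum the interval reaches 24.7%. Ndufaf6 (log2 -1.40) was in 1 of 13 striatum cells, and Cox6b2 (-1.35) in 2 of 13. Of these, 1 OStr cell at 275 TPM held nearly all of the Cox6b2 signal, and the value with OGStr cells alone was -5.46. The accessory subunit Ndufa6, at the limit of 2-fold, averaged 159 TPM in striatum and 320 TPM in SVZ. Ndufs4 (log2 -0.98), an accessory subunit that stabilises complex I, averaged 49.9 TPM in striatum and 99.8 TPM in SVZ, and was in 4 of 13 striatum cells (30.8%) and 75 of 133 SVZ cells (56.4%), with a log2 of -1.89 without OGStr cell 22. Ndufa6 was at -0.89 without OGStr cell 22. With 1 striatum cell left out at a time, 2 members were past 2-fold higher each time and 3 to 7 past 2-fold lower. These counts have no share over all genes beside them.

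The 4 cortical astrocytes were compared with SVZ cells in the same way. The median over 87 members was 0.21, against -0.49 over all 8940 genes, and 11 members were at least 2-fold higher in cortex (20.7% of all genes) and 14 lower (43.4%). With 100 TPM in either group, 10 of 77 members were 2-fold higher (25.2% of all 2321 genes) and 8 lower (18% of all), with a median of 0.28 for members and 0.27 for all genes. Over genes with 10 TPM in both groups the median ratio of cortex over SVZ was 0.34 on the log2 scale. After scaling by it the members' median was -0.13 and the split 4 higher and 16 lower. No share over all genes was taken after scaling, so these 2 counts have no background. The sign of the median between cortex and SVZ changed with this scaling.

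Core subunits of complex I and members of complex III had the highest medians, apart from assembly factors, in cortex over SVZ (0.56 and 0.51), and complex V one of -0.05. Of the core subunits, Ndufs1, Ndufs7 and Ndufv1 were past 2-fold. Ndufs1, the largest core subunit, stood at 451, 301, 867 and 0 TPM in the 4 cortex cells and averaged 125 TPM in SVZ (log2 1.69, or 1.00 without cortex cell 24). Ndufs7, which carries the last iron-sulfur cluster before ubiquinone, stood at 469, 1677, 221 and 1424 TPM in the 4 cortex cells, with a mean of 353 TPM in striatum and 452 TPM in SVZ. Ndufv1, which binds NADH, stood at 0, 219, 499 and 932 TPM in cortex and averaged 202 TPM in SVZ. The accessory subunit Ndufb6 was also higher in cortex (log2 1.21), and 0.47 without cortex cell 24. Also past 2-fold were Atp5o of the stalk of ATP synthase (1132 TPM in cortex and 494 TPM in SVZ), Uqcrh (1.17) and Uqcr10 (1.08) of complex III, and the accessory subunit Ndufb5 (1.02). Without 1 cell the log2 was 0.64 for Ndufs7 (cell 19), 0.25 for Ndufv1 (cell 5), 0.94 for Atp5o (cell 24), 0.65 for Uqcrh (cell 19), 0.06 for Uqcr10 (cell 1) and 0.03 for Ndufb5 (cell 24). Cells were uneven, with Uqcr10 at 2397, 588, 210 and 605 TPM and Ndufb5 at 0, 816, 1357 and 0 TPM.

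Most of the higher values in cortex rested on 1 cell: 10 of the 11 members, all but Ndufs1, were no longer 2-fold higher once some single cortex cell was left out. Ndufaf1 had 673 TPM in cortex cell 19 and was listed at 0 in the other 3, so its log2 of 2.41 rests on that cell. Ndufaf6 had 723 TPM in cortex cell 5 alone, and was listed at 0 in the other 3 (log2 2.15). Ndufaf7 stood at 76.5, 277, 0.07 and 36.6 TPM in cortex cells 1, 19, 24 and 5, with a log2 of 1.68 that was 0.33 without cortex cell 19. Of the members lower in cortex, 7 were listed at 0 in the 4 cells while reaching at least 10 TPM in SVZ: Ndufa9, Ndufa10, Ndufaf2, Ndufaf3, Cox7a2l, Cox6b2 and Atp5s. No fold is given for these. In SVZ the 3 most abundant of them, Ndufa10 (191 TPM), Ndufa9 (177 TPM) and Cox7a2l (170 TPM), were in 56.4%, 52.6% and 50.4% of cells, and 0 of 4 cells allows a share of up to 60.2% by the exact interval. Ndufa9 and Ndufa10 are accessory subunits and Cox7a2l helps complexes III and IV to associate. The other 7 lower members were Cox4i2 (-3.33), Ndufaf5 (-3.07), Ndufab1 (-1.87), Ndufb7 (-1.70), Sdha (-1.45), Ndufa13 (-1.06) and Ndufb2, which averaged 149.7 TPM in cortex and 300.5 TPM in SVZ. Of these, Cox4i2, Ndufaf5, Ndufab1 and Ndufb7 were each in 1 of 4 cortex cells. Ndufa13 and Ndufb2 were within 2-fold without 1 cell (-0.65 without cell 24 and -0.59 without cell 1). Over the 80 members above 0 in both groups, 62 were within 2-fold. No share over all genes was taken for this count or for the 7 members listed at 0 in cortex.

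For striatum over cortex the median was -0.14, against 0.10 for all 8276 genes, with 13 members at least 2-fold higher in striatum (38.3% of all genes) and 15 lower (28.9%). At 100 TPM in either group, 8 of 78 members were 2-fold higher (17.1% of all 2302 genes) and 14 lower (31.9%), with medians of -0.23 for members and -0.41 for all. Scaling by the median ratio of -0.40 turned the members' median to 0.26 and the split to 17 higher and 8 lower. These counts after scaling have no share over all genes beside them. Of the 13 that were higher, 7 are those listed at 0 in cortex, with Ndufa9 at 242 TPM, Cox7a2l at 156 TPM, Ndufa10 at 149 TPM, Ndufaf3 at 75.0 TPM and Ndufaf2 at 53.4 TPM in striatum. The other 6 were Cox4i2 (4.78), Ndufb7 (2.16), Ndufaf5 (2.11), Ndufab1 (2.03), Ndufa1 (1.32) and Sdha (1.31). Ndufaf5 was in 1 of 13 striatum cells, at 153 TPM, and listed at 0 in the other 12. Ndufa1 averaged 1353 TPM in the 2 OStr cells, 125 TPM in the 11 OGStr cells and 125 TPM in cortex, so its log2 was 0.40 without OStr cell 4 and -0.00 with OGStr cells alone. Sdha had 0.90 without cortex cell 1. The members lowest in striatum with cells in both groups were Ndufaf6 (log2 -3.55, listed at 0 in cortex without cell 5), Ndufv1 (-1.91, and -1.13 without cortex cell 5), Ndufs4 (-1.89, and 0.08 without cortex cell 1) and Ndufs1 (-1.66, and -0.97 without cortex cell 24). Ndufv1 was in 5 of 13 striatum cells, and Ndufaf1 was listed at 0 in all 13. Uqcrh (-1.60), Ndufb6 (-1.49, and -0.75 without cortex cell 24) and Ndufs7 (-1.42, and -0.996 without cortex cell 19) followed. Of the members above 0 in both groups, 3 of the 6 past 2-fold higher in striatum and 12 of the 14 past 2-fold lower were within 2-fold, or listed at 0 in the higher group, once some single cell was left out. Sdhd was at -1.04, and at 0.81 without cortex cell 5.

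SVZ cells differed widely in the share of their TPM that came from the 88 cytosolic ribosomal protein genes, between 0.747% and 15.6% with a median of 1.92%. Ribosomal protein transcripts are known to increase when neural stem cells leave rest. In fixed ranges of this share, 69 SVZ cells lay under 2%, 38 between 2% and 5% and 26 over 5%. The proliferation gene Mki67 was at 1 TPM or more in 0, 0 and 11 cells of these ranges, Egfr of activated stem cells in 18, 11 and 24, and the astrocyte channel Aqp4 in 63, 32 and 5. The median cell had 3054, 3574.5 and 6135.5 genes at 1 TPM or more.

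The share of TPM in the respiratory chain went with the ribosomal protein share (rho 0.38, Pearson r 0.45, over 133 SVZ cells), and rho ran from -0.15 to 0.46 over the complexes. Complex IV (rho 0.46) and complex V (0.41) had the highest values, complex III (0.26), complex I accessory subunits (0.23) and assembly factors (0.21) lower ones, and complex II (0.00) and the core of complex I (-0.15) the lowest. Without the 2 cells farthest from the median ribosomal share, rho was 0.36 and r 0.41. Within series of cells rho was 0.54 in ogp (68 cells) and 0.23 in ogp2 (65 cells), and it was 0.20 over the cells with a ribosomal share of at most 5%. For complex IV rho was 0.62 in ogp and 0.28 in ogp2, and for complex V 0.45 in ogp and 0.32 in ogp2. The core of complex I had -0.12 in both. A difference of sets by their rho was not tested, and all values come from the same cells. The number of genes detected went with the ribosomal share as well (rho 0.63), and its part in these relations was not tested.

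**Figure D4:**
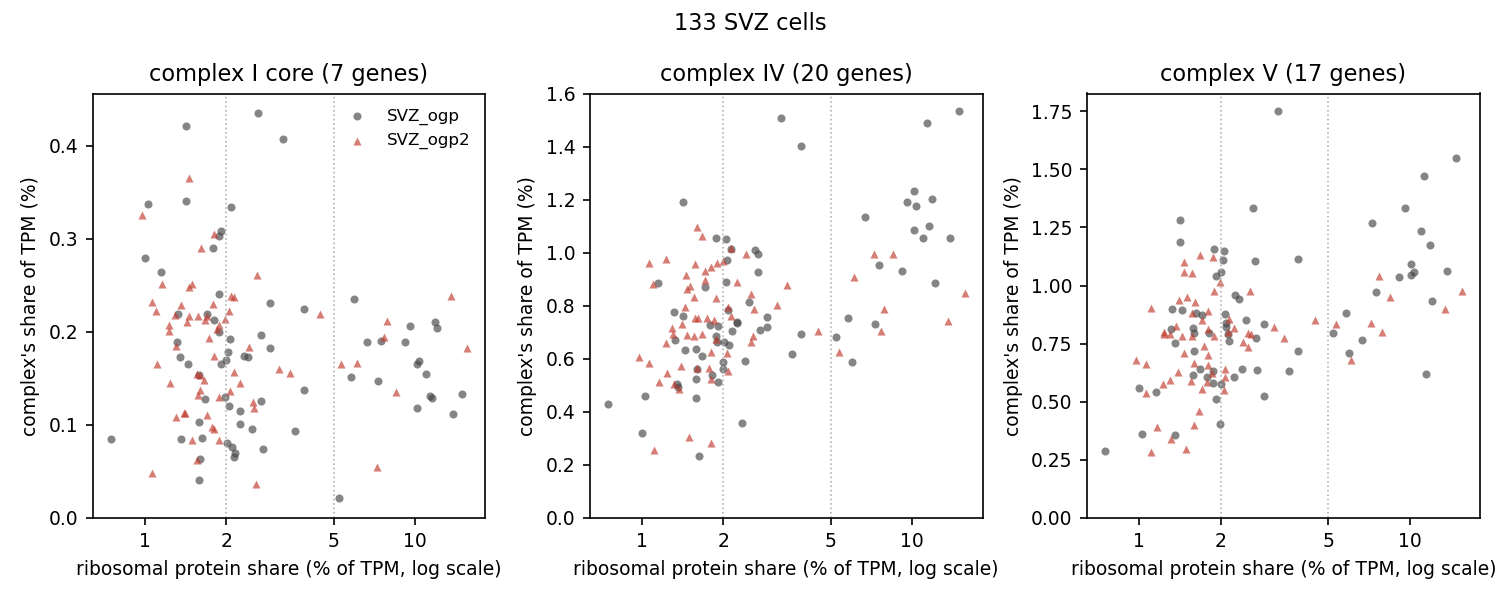
Each point is 1 of the 133 SVZ cells (circles ogp, triangles ogp2), with its ribosomal protein share on a log axis and the share of TPM of the core of complex I, of complex IV and of complex V, all in percent. Dotted lines mark 2% and 5%, and complexes IV and V rise to the right (rho 0.46 and 0.41) while the core of complex I does not (-0.15).

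In cells under 2%, 2% to 5% and over 5% ribosomal share, the median chain share was 2.84%, 2.99% and 3.66%. For complex IV it was 0.687%, 0.772% and 0.974%, for complex V 0.753%, 0.809% and 0.974%, and for the core of complex I 0.199%, 0.158% and 0.166%. As ribosomal transcripts take up part of the total, the chain was also taken as a share of all other TPM, where its rho was 0.47.

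Single members were followed in the same cells. Their median rho was 0.15 over 87 members, and 0.15 over all 8160 genes outside the ribosomal proteins with at least 10 TPM. Of the members, 10 had a rho of at least 0.3 (18.5% of all genes) and 0 one of at most -0.3 (3.14%). Limited to genes in at least 50% of SVZ cells, 9 of 76 members reached 0.3 (14.4% of all 1916) and 0 went to -0.3 (11.4%), with a median of 0.14 for members and 0.05 for all. The 10 members became 31 within the ogp cells, 4 within ogp2 and 1 among the cells of at most 5%. No share over all genes was taken within these sets of cells, so these counts have no background. By complex, the median member had 0.25 in complex V, 0.21 in complex IV, 0.20 among assembly factors, 0.11 in complex III, 0.11 among accessory subunits of complex I, 0.04 in its core and 0.03 in complex II.

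The highest rho was that of Atp5e (0.50), the epsilon subunit of the stalk of ATP synthase. It averaged 239, 345 and 745 TPM in the ranges under 2%, 2% to 5% and over 5%, and was in 65.2%, 86.8% and 100% of their cells. Its rho was 0.57 in ogp and 0.42 in ogp2. Ndufaf8, an assembly factor of complex I, followed (0.45) at a level of 20.1, 40.0 and 73.3 TPM. Atp5g2, 1 of the 3 genes for subunit c, had 0.44 and averaged 227, 357 and 562 TPM, while its homologue Atp5g3 had a rho of 0.25. Cox4i1 (0.43) averaged 873, 1182 and 1347 TPM. Uqcrq, a small subunit of complex III, had 0.41 and Cox7a2l 0.37, with 361 TPM for Cox7a2l in cells over 5% and 136 TPM in cells under 2%. The other 4 members at 0.3 or more were Atp5mpl (0.35), Cox6b1 (0.34), Cox7c (0.34) and Atp5g1 (0.32). None of the 10 is a core or accessory subunit of complex I or a subunit of complex II.

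At the other end stood Cox4i2 (-0.10), Ndufs8 (-0.08), Ndufs7 (-0.07) and Ndufb9 (-0.07). Ndufs7 averaged 478, 515 and 290 TPM over the ranges, a log2 of -0.72 for cells over 5% against those under 2%. Cox4i2 averaged 56.5, 56.9 and 4.32 TPM and was in 16 of 69, 9 of 38 and 1 of 26 cells (3.85% in the last, interval 0.0973 to 19.6). Its log2 of -3.43 was the lowest of the members, and its rho was 0.05 over cells of at most 5%. Of the mural markers, Pdgfrb had a log2 of -3.47 between the same cells, Rgs5 one of 0.88 and Acta2 one of 0.01. Rgs5 and Acta2 averaged only 0.164 and 0.00143 TPM in SVZ. The 12 markers of astrocytes and resting stem cells ran from -5.14 (Aqp4) to -1.88 (Slc1a3). Of the isoforms of subunit 4, Cox4i1 was higher and Cox4i2 lower in cells over 5% than under 2%.

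**Figure D5:**
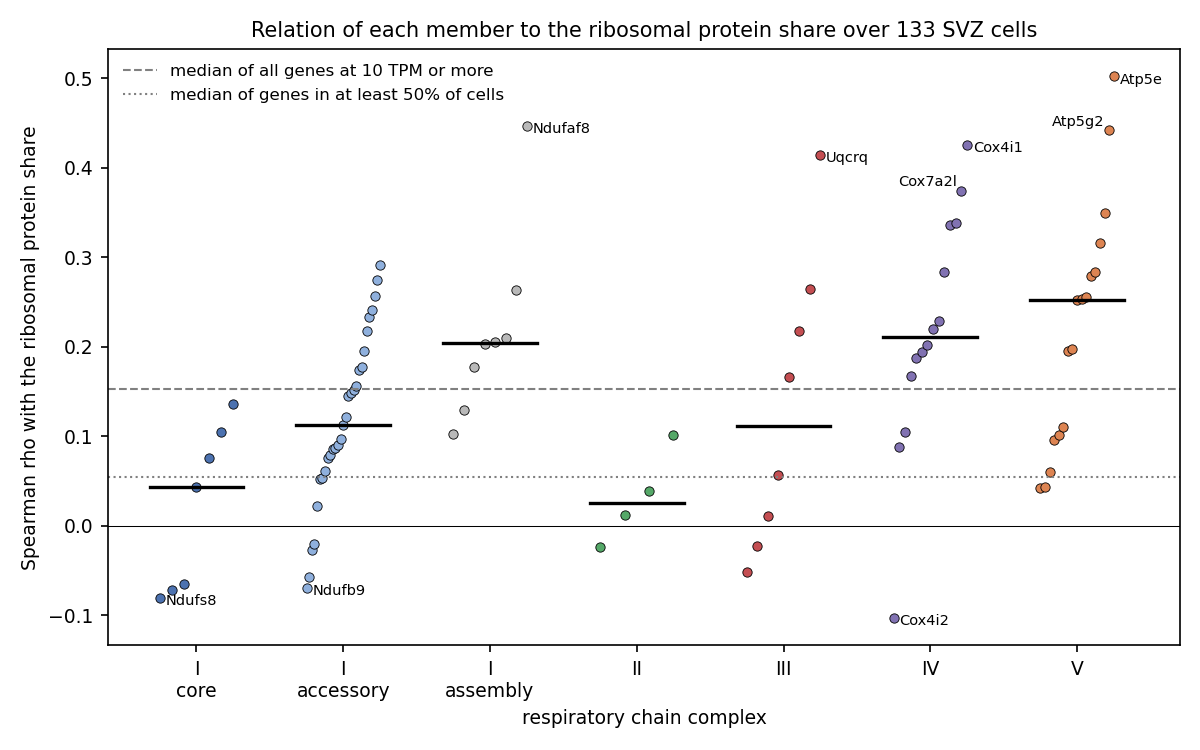
Each point is 1 of 87 members with at least 10 TPM in SVZ, with its Spearman rho between TPM and the ribosomal protein share over 133 SVZ cells, sorted within its complex. Black bars are medians per complex, and the grey lines are medians of all genes with at least 10 TPM (0.15) and of those in at least 50% of cells (0.05).

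By mean TPM, cells over 5% against cells under 2% had a median log2 of 0.26 over 87 members and of 0.26 over all 9220 genes. Here 6 members were at least 2-fold higher (29.9% of all genes) and 1 was lower (21.3%). The 6 were Ndufaf8, Atp5e, Cox7a2l, Atp5g2, Uqcrq and Atp5g1. Medians were 0.47 for complex IV, 0.36 for complex V, 0.02 for complex II and -0.20 for the core of complex I. Members were found in more cells, as were most other genes. The median share of cells at 1 TPM was 72.5%, 78.9% and 96.2% over the ranges for 87 members. The share was higher over 5% than under 2% in 86 of them, all but Cox4i2. It was also higher in 6769 of all 8160 genes outside the ribosomal proteins with at least 10 TPM in SVZ. The median gain was 22.2 percentage points for the 87 members and 25.9 percentage points for all of those genes. Sdhd, with mean TPM of 247, 167 and 253, was in 53.6%, 50.0% and 96.2% of cells. At 100 to 1000 TPM the share was higher in 71 of 71 members and 77.5% of all 1456 genes, and the median gain was 21.7 percentage points for these members and 22.9 percentage points for all of these genes. A median of 60, 64.5 and 80 members was at 1 TPM in a cell, and this number went with the count of detected genes (rho 0.79 over SVZ cells).

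Transcripts of the members are short. In GENCODE M21 the 87 members had a median transcript length of 755 bases, taken as the median over each gene's protein coding transcripts, against 2037.5 bases for genes in at least 50% of SVZ cells. Across members, length and rho had a Spearman correlation of -0.36, and across those genes in at least 50% of cells -0.21. Within complexes the sign varied: it was 0.75 in the core of complex I (7 members), -0.19 among its accessory subunits (29), -0.71 among its assembly factors (8), 0.20 in complex II (4), -0.62 in complex III (8), 0.00 in complex IV (14) and -0.45 in complex V (17). The median rho was 0.19 for 54 members under 1000 bases and 0.10 for 33 longer members, against 0.16 and 0.03 for all genes in at least 50% of cells. The core of complex I (median 1312 bases) and complex II (1612 bases) had longer transcripts than complex IV (625.5 bases) and complex V (747.5 bases). Genes are not independent replicates, and the part of length in the relation was not tested.

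Promoters are shown for members at both ends of the relation, to set letters known from genes of the respiratory chain beside the values. RefSeq windows on GRCm38.p6 (250 bases before the start) were matched by symbol for 74 of 93 members. Searched on both strands were the NRF1 letters GCATGCGC and the ETS motif CCGGAAG bound by GABP, both known from promoters of nuclear respiratory genes. GCATGCGC was in 9 of 74 members (12.2%) and 2.56% of all 27025 genes, and CCGGAAG in 14 members (18.9%) and 7.83% of all genes, while 62 ribosomal protein genes had GCATGCGC in 0 and CCGGAAG in 18. The YY1 letters AAGATGGCG were in 1 member (1.35%) and 0.710% of all genes, CCAAT in 33 (44.6%) and 37.5%, and TATAAA in 6 (8.11%) and 14.3%. No motif contains another, and GCATGCGC can overlap its own reverse complement, as in Atp5g2. Below, 5′ to 3′ on the gene's strand, matches to GCATGCGC, CCGGAAG or AAGATGGCG on either strand are in capitals: CTTCCGG in Atp5e, CCGGAAG in Ndufaf8 and GCGCATGCGC in Atp5g2, while no such match lies in these windows of Cox7a2l, also at the high end (rho 0.37), and of Ndufs7 and Ndufs8 (not printed) at the low end. A match is a description of letters and does not show binding.
Atp5e chr2:174464102-174464351, minus strand: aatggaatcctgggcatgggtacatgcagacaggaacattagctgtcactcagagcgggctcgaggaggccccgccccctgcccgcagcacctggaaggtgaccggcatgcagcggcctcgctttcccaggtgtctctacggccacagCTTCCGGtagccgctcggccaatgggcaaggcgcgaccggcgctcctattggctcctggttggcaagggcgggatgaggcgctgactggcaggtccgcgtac
Ndufaf8 chr11:120098684-120098933, plus strand: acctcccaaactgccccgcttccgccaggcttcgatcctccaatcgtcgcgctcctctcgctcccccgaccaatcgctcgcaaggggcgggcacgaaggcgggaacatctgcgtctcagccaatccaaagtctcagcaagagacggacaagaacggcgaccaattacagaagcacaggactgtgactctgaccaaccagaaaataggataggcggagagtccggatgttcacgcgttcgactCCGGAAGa
Atp5g2 chr15:102671048-102671297, minus strand: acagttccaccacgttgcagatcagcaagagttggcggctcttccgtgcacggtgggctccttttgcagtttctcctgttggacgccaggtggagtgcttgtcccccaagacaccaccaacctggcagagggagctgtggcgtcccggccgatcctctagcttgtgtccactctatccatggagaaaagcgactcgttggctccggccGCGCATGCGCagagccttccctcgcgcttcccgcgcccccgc
Cox7a2l chr17:83514334-83514583, minus strand: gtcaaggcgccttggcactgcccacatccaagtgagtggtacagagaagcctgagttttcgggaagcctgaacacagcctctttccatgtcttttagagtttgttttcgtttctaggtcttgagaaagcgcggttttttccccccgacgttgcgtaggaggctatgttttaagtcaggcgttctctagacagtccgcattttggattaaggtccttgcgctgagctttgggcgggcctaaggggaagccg
Ndufs7 chr10:80249199-80249448, plus strand: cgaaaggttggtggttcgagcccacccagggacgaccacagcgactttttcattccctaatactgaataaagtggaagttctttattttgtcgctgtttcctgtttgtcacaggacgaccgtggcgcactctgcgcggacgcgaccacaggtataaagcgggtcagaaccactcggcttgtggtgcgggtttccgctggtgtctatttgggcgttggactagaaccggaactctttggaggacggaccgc

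Other genes of the pathway were taken from lists. Over all genes, 12.3% were 2-fold higher and 28.3% lower in striatum than SVZ, with a median log2 of -0.26. For cortex over SVZ these shares were 20.7% and 43.4%. For SVZ cells over 5% against under 2% ribosomal share they were 29.9% and 21.3%, outside the ribosomal proteins. Cyc1, the cytochrome subunit of complex III that the symbol rule does not catch, averaged 446 TPM in striatum, 521 TPM in cortex and 321 TPM in SVZ (rho -0.14), and its electron acceptor Cycs 66.4 TPM in striatum, 81.3 TPM in cortex and 57.3 TPM in SVZ. Of 31 assembly factors of complexes I to V outside the symbol rule, 1 was 2-fold higher (Foxred1, a complex I factor) and 10 lower in striatum than SVZ (median log2 -0.50), and Uqcc2 of complex III had a rho of 0.34. Of 17 genes of the citric acid cycle and pyruvate dehydrogenase, 0 were higher and 3 lower in striatum (median -0.35), and their median rho was 0.14. Mitochondrial ribosome genes had a median of -0.37 in striatum over SVZ (77 genes, 4 higher and 14 lower) and a median rho of 0.22. Glycolysis genes had a median of -0.06 in striatum over SVZ (16 genes, 1 higher and 1 lower), 0.62 in cortex over SVZ (15 genes, 4 higher and 0 lower) and a median rho of -0.13, and in cells over 5% against under 2% their median log2 was -0.80, with 0 of 15 genes 2-fold higher and 7 lower. Aldoc, an aldolase that is also an astrocyte marker, averaged 9359 TPM in striatum, 10007 TPM in cortex and 6382 TPM in SVZ (rho -0.50).

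Among carriers, porins and import factors, 12 genes had a median log2 of -0.24 in striatum over SVZ and a median rho of 0.15. Of these, 0 were 2-fold higher and 3 lower, against 12.3% and 28.3% of all genes. Here the phosphate carrier Slc25a3 (955 TPM in SVZ, rho -0.27) and the ADP/ATP carrier of heart and brain Slc25a4 (711 TPM, -0.34) had a negative rho, and Chchd2 (784 TPM, 0.32), a protein found with complex IV, a positive one. Of 11 regulators of mitochondrial biogenesis, 0 were higher and 3 lower in striatum (median -0.10). The coactivator Ppargc1a averaged 57.7 TPM in striatum, was listed at 0 in the 4 cortex cells and averaged 42.6 TPM in SVZ. The cytosolic ribosomal proteins, which define the share, had a median of -0.97 in striatum over SVZ (84 genes, 0 higher and 38 lower), and 14 mitotic genes one of -5.15.

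The levels of a few members are uncertain. Ndufb4 averaged 62.9 TPM in cortex and 117 TPM in SVZ, but Ndufb4c, which GENCODE calls a processed pseudogene, is listed at 231 TPM in striatum, 147 TPM in cortex and 230 TPM in SVZ. Over 121 cells with both at 1 TPM or more, the ratio of Ndufb4c to Ndufb4 had a median of 2.01 and ran from 0.423 to 10.3. How the reads of such near copies were divided is not given in the sources used here. The highest mean among the other 10 pseudogenes was 4.40 TPM, for Uqcrh-ps1 in striatum.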

How the data were processed

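Single cells were measured by Smart-seq2. The authors deposited TPM values per Ensembl gene; the unit was read from the values, since all but 5 columns sum to between 999576 and 1000000. Per the submitters' processing notes, the tools were RSEM 1.2.18 and STAR 2.4.0g1 and the build was mm10. Symbols and lengths came from GENCODE M21, and 42425 of 43309 IDs had a symbol. No 2 cells had identical columns. The other 18 samples of the series are populations and were not analysed here.

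Groups were taken from the labels, 1 sample per tissue. Each cell was scaled to 1000000. Differences are log2 of mean TPM + 1 over mean TPM + 1 for genes that reach 10 TPM in 1 of the groups or both, and a 2-fold limit was used with no test. Exact Clopper-Pearson 95% intervals and Spearman correlations were computed with scipy 1.17.1 (pandas 2.3.3, numpy 2.4.6, python 3.11.15, matplotlib 3.10.9). The computation was checked on simulated data.

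Named were the 3 highest members per complex, up to 5 per direction and comparison with at least 20 TPM in the higher group, the 6 highest and 4 lowest rho, the isoform sets, the Sdh genes and members singled out after their values were seen; 1 member that this rule takes is not reported here. Members and lists were chosen with earlier results of these data known. The 100 TPM limit, the comparison without the 5 short columns, the leaving out of single striatum cells and that of cortex cells for all members past 2-fold were added after seeing the data.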

Additional observations from a re-analysis of the deposited data

How the results depend on the processing

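The difference medians ran from -0.06 to 0.35 over the alternatives for striatum over SVZ, from -0.13 to 0.61 for cortex over SVZ and from -0.23 to 0.26 for striatum over cortex. With logs averaged over cells, 17 members were 2-fold higher and 10 lower in striatum than SVZ, 32 higher in cortex than SVZ, and 24 lower in striatum than cortex. Among the alternatives, a share over all genes was taken at the 100 TPM limit alone. Without assembly factors the striatum and SVZ counts were 1 higher and 2 lower. At 100 TPM they were 1 higher and 1 lower, with 8 lower in cortex than SVZ and 8 higher in striatum than cortex. Scaling by the median ratio gave 4 higher in cortex than SVZ and 8 lower in striatum than cortex. Leaving out 1 cortex cell at a time gave 9 to 12 higher and 15 to 19 lower for cortex over SVZ (median 0.13 to 0.25), and 15 to 17 higher and 11 to 14 lower for striatum over cortex (median -0.20 to 0.01). In these, for striatum over cortex, Ndufs4 ran from -2.80 (without OGStr cell 22) to 0.0845 (without cortex cell 1) and Sdhd from -1.46 to 0.812 (without cortex cell 5), and with OGStr cells alone Ndufa1 was at -0.00368. Leaving out 1 striatum cell at a time, added after seeing the data with the same for all members past 2-fold, gave 2 higher and 3 to 7 lower for striatum over SVZ (median -0.05 to 0.01), and 12 to 13 higher and 11 to 18 lower for striatum over cortex (median -0.20 to -0.08). Where a group was then listed at 0 no fold was given. The cause of other changes was not tested.

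The chain's rho was 0.54 in ogp with 31 members at 0.3 or more, 0.23 in ogp2 with 4, 0.20 in cells of at most 5% with 1, and 0.21 in the 80 cells with a mitotic sum under 1 TPM with 3. As a share of TPM outside ribosomal proteins 17 members reached 0.3. No share over all genes was taken for these counts. Cox4i2 had 0.0527 in cells of at most 5% and 0.0931 in the 80 cells. Of the other single-gene values, 428 stayed within the tolerance (1.5-fold, 0.1 in rho) and 58 moved past it. A change of sign from a main value smaller than the tolerance was not counted apart. Ndufb9 is such a case, with a rho of -0.069 over all SVZ cells and 0.045 in ogp. No paired analysis was possible because no number links cells of different tissues and no test was made. Depth is unknown, so a value of 0 in a cell sets no limit on expression, and 4 cortex cells allow shares of cells to be placed only within wide intervals.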

Other observations

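Other mitochondrial genes were set beside the chain in SVZ cells over 5% against cells under 2% ribosomal share. Of 77 genes of the mitochondrial ribosome, 25 were at least 2-fold higher and 0 lower (median log2 0.68). Regulators of mitochondrial biogenesis had a median of 0.70, with 4 of 13 higher and 2 lower, and Ppargc1a was at -1.63. Carriers, porins and import factors had a median of 0.47, with 3 of 12 higher and 0 lower, while Slc25a4 was at -0.94 and Slc25a3 at -0.67. Genes of the citric acid cycle had a median of 0.15, with 0 of 17 past 2-fold in either direction. Over all genes outside the ribosomal proteins 29.9% were 2-fold higher and 21.3% lower, with a median log2 of 0.26. The mitochondrial ribosome count of 25 of 77 thus lay near the background for higher genes. Its count of 0 lower and its median of 0.68 did not lie near the values over all genes.

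Within the ogp cells the median chain share was 3.77% over 5% ribosomal share (18 cells) and 2.70% under 2% (26 cells), and within ogp2 it was 3.11% over 5% (8 cells) and 3.09% under 2% (43 cells). Complex IV followed the same order, with 1.07% over 5% and 0.622% under 2% in ogp, and 0.819% over 5% and 0.730% under 2% in ogp2. In the 13 striatum cells, complex IV had a rho of 0.54 with the ribosomal share and complex V one of -0.12.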
